A study of Mus musculus with 92 samples.

Results

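A set of 9 leukocyte adhesion genes, of the 23956 genes in the expression table, was followed across 92 single bone marrow cells. They were taken by name: the integrin alpha subunits Itgam (CD11b), Itgal (CD11a), Itga4 and Itga6, the beta subunits Itgb2, Itgb1 and Itgb7, the integrin ligand Vcam1, and Selplg, the gene of the selectin ligand PSGL-1. The cells are 47 of the CD11b+ GMP-P gate and 45 of the GMP gate, the granulocyte-monocyte progenitor gate in common usage. All were sorted from hindlimb marrow of C57BL/6 mice that carry Gfi1-R412X on both alleles, after bead enrichment for CD117, and the samples hold 0 wild type cells, so what the mutation does was not analysed here. GFI1 is a transcriptional repressor with zinc fingers that is needed to form granulocytes. The sources used here do not give the animals or their ages. All cells of a gate share a date-like tag in the sample descriptions and the tag differs between the gates, so a gate cannot be told apart from the animal, the day or the chip run behind it. Each gate therefore counts as 1 sample without a replicate, no test was made, and every SD is the spread of cells.

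Integrins are heterodimers of 1 alpha and 1 beta chain. The beta 2 integrins CD11b/CD18 (Itgam with Itgb2) and CD11a/CD18 (Itgal with Itgb2) are leukocyte receptors for ICAMs, and CD11b/CD18 also binds fibrinogen and complement fragments; the beta 1 integrins bind matrix proteins and VCAM-1 and hold progenitors in the marrow. Alpha 4 pairs with beta 1 to form VLA-4, the receptor of VCAM-1 and fibronectin, or with beta 7, and alpha 6 with beta 1 binds laminin. PSGL-1 carries the sugar chains that selectins grip when a leukocyte rolls.

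RefSeq promoter sequences (build GRCm38.p6; the expression values themselves rest on mm9) were at hand for 4 of the 9 genes: Itgam, Itga4, Itgb1 and Itgb7. The 250 bases before the start are shown for the alpha chain that was higher in CD11b+ GMP-P cells and for the beta chain that was lower, chr7:128062390-128062639 on the plus strand for Itgam and chr8:128685404-128685653 on the plus strand for Itgb1. Capitals mark GAGGAA, the core bound by PU.1 type ETS factors, on either strand.
Itgam: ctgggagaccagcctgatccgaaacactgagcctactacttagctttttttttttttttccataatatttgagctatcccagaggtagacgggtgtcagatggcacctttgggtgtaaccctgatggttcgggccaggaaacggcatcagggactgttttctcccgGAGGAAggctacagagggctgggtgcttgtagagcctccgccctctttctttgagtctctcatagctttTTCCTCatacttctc
Itgb1: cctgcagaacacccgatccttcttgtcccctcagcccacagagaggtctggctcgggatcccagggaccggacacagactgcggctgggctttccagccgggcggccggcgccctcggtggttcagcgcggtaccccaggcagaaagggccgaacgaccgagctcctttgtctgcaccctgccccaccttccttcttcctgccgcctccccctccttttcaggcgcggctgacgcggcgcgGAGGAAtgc
Positions are those of the motif base farthest from the start. The Itgam window holds the motif at 84 bases before the start on the plus strand and at 15 bases on the minus strand, and the Itgb1 window holds it at 9 bases on the plus strand. The Itga4 and Itgb7 windows hold 0 matches. Of 32851 promoter windows of this length in the table, 23.3% hold GAGGAA on either strand. TTGCNNAA (C/EBP type, in 9.56% of windows) and AATCAC (GFI1 core, in 9.14%) were found in 0 of the 4 windows, and GGGCGG (GC box, in 32.7%) was found once each in those of Itgam, Itga4 and Itgb1. None of the 4 motifs overlaps another in these windows. A match describes letters in a window and not a bound site.

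Values are TPM (an abundance scaled by transcript length and by the total of the cell, so that levels of different genes can be set side by side), and differences are between means of log2(TPM + 1) over cells. This scale understates the change of low genes. A gene was compared if one group or the other had it above 0 TPM in 25% of its cells or more, and it is called higher or lower where the difference reached 1 on the log2 scale, which is 2-fold. TPM keeps no read depth, so genes detected per cell stand in for it: the median was 4143 in CD11b+ GMP-P cells and 5611 in GMP cells. The cells also carry 1 of 9 state names from the authors' deposited annotation. The sources used here do not say how those names were made, and if they came from these expression values, no state difference is independent of them. In the CD11b+ GMP-P gate there were 20 Gran-2, 15 Myelo-2, 4 Gran-1, 3 Myelo-1 and 3 Myelo-4 cells, with 1 Multi-Lin and 1 Mono cell. The GMP gate held 24 Mono, 6 Gran-1, 5 Multi-Lin, 5 MP, 3 cMoP and 2 Gran-2 cells.

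Between the gates, 8 of the 9 members were compared: Itgam, Itgb2 and Vcam1 were higher in CD11b+ GMP-P cells, and Itgb1, Selplg and Itga4 were lower. Of 7803 genes, 2.72% were higher and 39% were lower. Itgam encodes the antigen of the sort and Itgb2 its partner chain, so neither is independent of the gate. The 3 higher members are therefore not read against the share of all genes. The 3 lower members of 8 are close to that share. The median difference was -0.28 over the 8 members and -0.74 over all genes compared, so a member at -0.74 moved with the bulk of the transcriptome. Relative to that median, Itgb2 stood at 4.31, Itgam at 4.17 and Vcam1 at 3.20, and Itgb1 at -1.82 and Selplg at -1.59, but Itga4 only at -0.36. The call of Itga4 did not hold under 6 of the 8 other settings that recomputed it (-0.10 in cells matched on genes detected). In Gran-1 and Gran-2 cells alone Itgb1 was at -0.61. Scaling each cell to equal medians of widely detected genes gave a median of -0.40, with 8.02% of genes higher and 27.03% lower. Itgb7 did not pass the detection filter. It was at 0 in all CD11b+ GMP-P cells, where 0 of 47 cells allows a share of up to 6.38%, and above 0 in 3 of 45 GMP cells, with a highest value of 4.37 TPM.

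**Figure D1:**
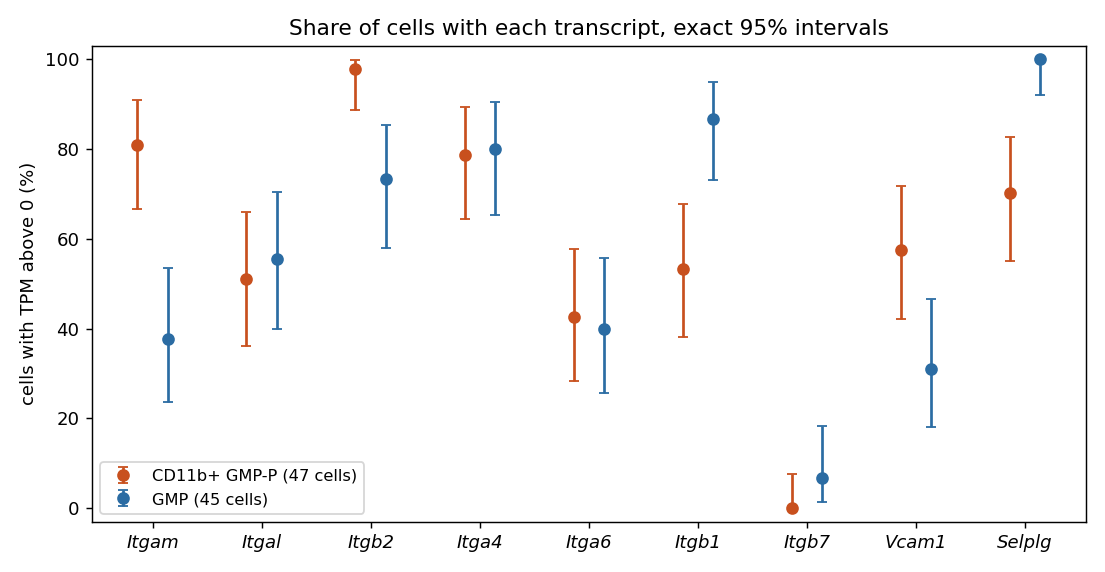
Share of cells with each of the 9 transcripts above 0 TPM (vertical axis, percent), for 47 CD11b+ GMP-P cells (left point of each pair) and 45 GMP cells (right point); bars are exact Clopper-Pearson 95% intervals. The shares stand apart most for Itgam (80.9% of CD11b+ GMP-P cells, 37.8% of GMP cells) and are close for Itgal (51.1% and 55.6%) and Itga4 (78.7% and 80%).

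Itgam, the alpha chain whose protein defined the sort, was above 0 in 38 of 47 CD11b+ GMP-P cells (80.9%, exact Clopper-Pearson 95% interval 66.7 to 90.9%) and in 17 of 45 GMP cells (37.8%, 23.8 to 53.5%). These intervals cover counting error only. Its median was 39.7 TPM in CD11b+ GMP-P cells, with a range of 0 to 780.2 TPM, and 0 TPM in GMP cells, with a range of 0 to 237 TPM. Of the 17 GMP detections 8 were traces of 1 TPM or less. Above 1 TPM there were 36 CD11b+ GMP-P cells and 9 GMP cells, above 10 TPM 29 and 6, and above 100 TPM 13 and 2. Since the antibody against CD11b chose the cells, the Itgam difference is a check of the sort and not an independent result. The GMP gate is not named for CD11b, and the sources used here do not say whether its cells were sorted as negative for it.

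The transcript was missing from part of the CD11b+ sort. Of the 9 CD11b+ GMP-P cells with Itgam at 0, 7 were Gran-2, 1 was Gran-1 and 1 was Multi-Lin, and 8 of the 9 had Itgb2. They had between 2629 and 5543 genes detected, and the gate as a whole between 1993 and 5743. In the GMP gate the 6 cells above 10 TPM of Itgam were 3 Mono, 1 MP, 1 Gran-1 and 1 Gran-2 cell. The highest of these, at 237 TPM, was a Mono cell with Itgb2 at 0.

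Within CD11b+ GMP-P cells, Itgam ran with the state names. In 4 Gran-1 cells it was 0, 0.15, 18.96 and 82.5 TPM. In 20 Gran-2 cells the lowest, median and highest values were 0, 3.18 and 319 TPM, with 13 cells above 0. In 3 Myelo-1 cells it was 16.3, 66.1 and 149 TPM. Every Myelo cell thus had the transcript, while 8 of 24 Gran cells had none. In 15 Myelo-2 cells the lowest, median and highest values were 6.13, 91.9 and 780.2 TPM, and in 3 Myelo-4 cells Itgam was 95.2, 304 and 652 TPM. The state means of log2(TPM + 1) were 8.06 ± 1.39 in Myelo-4, 6.09 ± 2.04 in Myelo-2, 5.80 ± 1.58 in Myelo-1, 3.06 ± 2.99 in Gran-2 and 2.73 ± 3.15 in Gran-1 cells (SD of cells). No neighbours in this order differed by more than the larger of their SDs. In the GMP gate the state means of Itgam in the 5 states with at least 3 cells lay between 0.10 (cMoP) and 0.97 (MP), all below those 5 means and within the spread of each other.

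**Figure D2:**
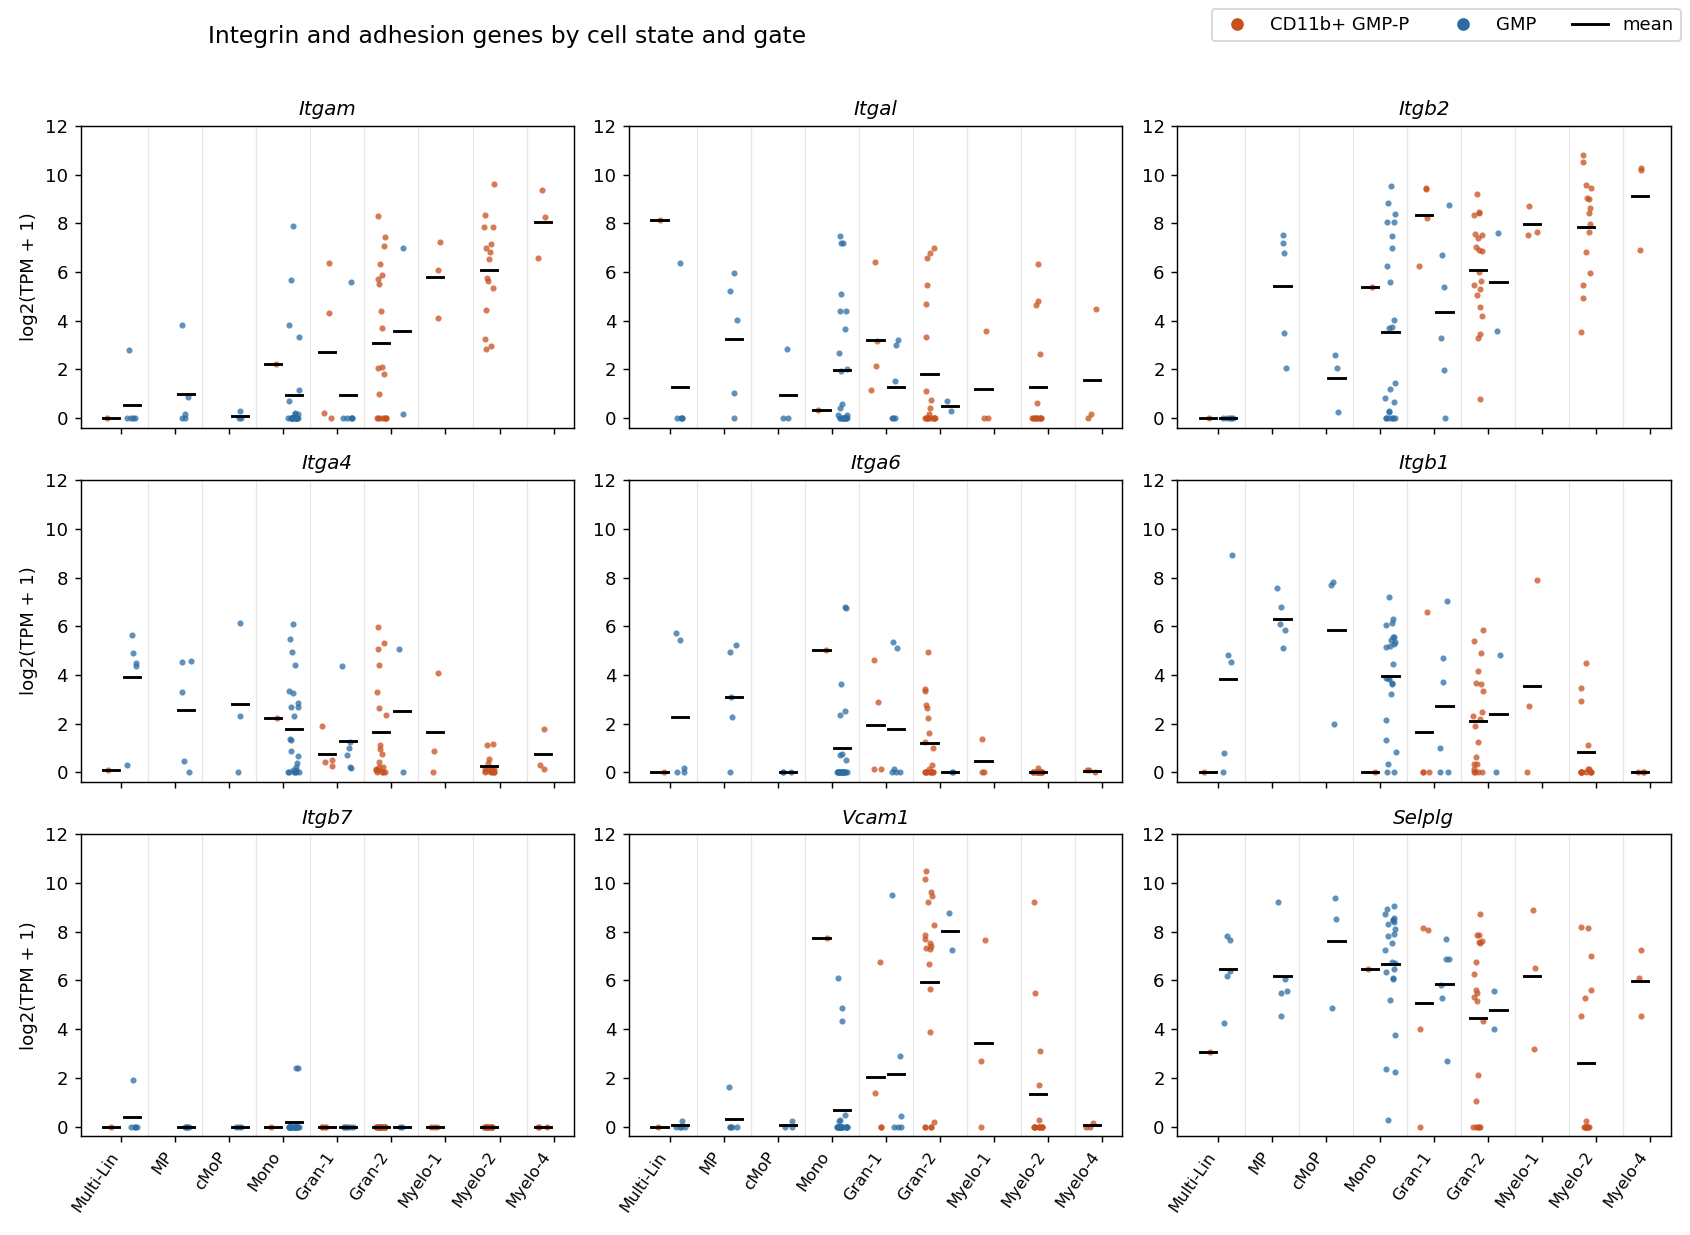
Level of the 9 genes in every cell, as log2(TPM + 1), by state name from Multi-Lin to Myelo-4. CD11b+ GMP-P cells lie left of GMP cells in each state, with black bars at the mean. Itgam is highest in the Myelo states (it averages 6.09 in Myelo-2 and 3.06 in Gran-2 cells), Itgb1 is highest in the MP cells of the GMP gate (6.28), and Vcam1 is concentrated in Gran-2 cells (5.95 in CD11b+ GMP-P cells).

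Itgb2, the common beta chain of the leukocyte integrins, was above 0 in 46 of 47 CD11b+ GMP-P cells and in 33 of 45 GMP cells. Its lowest, median and highest values were 0, 180.2 and 1779 TPM in CD11b+ GMP-P cells and 0, 5 and 749 TPM in GMP cells. The gate ranges overlap, but 30 CD11b+ GMP-P cells and 13 GMP cells were above 100 TPM. Among GMP cells Itgb2 was at 0 in all 5 Multi-Lin cells and above 0 in all 5 MP cells, at 3.18, 10.3, 110, 146 and 184 TPM. The 3 cMoP cells held 0.20, 3.11 and 5 TPM. In the 24 Mono cells the lowest, median and highest values were 0, 6.76 and 749 TPM. In GMP cells the beta chain was thus often seen without the alpha chain of the sort: 20 cells had Itgb2 without Itgam, and 4 had Itgam without Itgb2.

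By level Itgb2 did not follow the order of the state names. In CD11b+ GMP-P states with at least 3 cells its means of log2(TPM + 1) were 9.13 in Myelo-4, 8.33 in Gran-1, 7.96 in Myelo-1, 7.85 in Myelo-2 and 6.07 in Gran-2 cells, with SDs of 0.65 to 2.12, so Gran-2 cells were lowest and no neighbour in this order differed beyond the spread of cells. In the GMP gate the order of the states with at least 3 cells was MP (5.41), Gran-1 (4.35), Mono (3.55), cMoP (1.63) and Multi-Lin (0), and only Multi-Lin, where no cell had it, stood apart from its neighbour beyond the larger SD.

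Between cells with the same state name, Itgb2 differed in Gran-1 cells but hardly in Gran-2 cells, where its means of log2(TPM + 1) were 6.07 in the CD11b+ GMP-P gate (20 cells, median 89.03 TPM) and 5.58 in the GMP gate (10.85 and 192 TPM in 2 cells). Gran-1 cells of the CD11b+ GMP-P gate held 75.8, 295, 678 and 703 TPM of Itgb2, and those of the GMP gate 0, 2.91, 8.89, 40.8, 102 and 435 TPM. The 2 sets overlap in 2 of the GMP cells. The means differ by 3.98 on the log2 scale, above 99.3% of the 9201 genes compared. In that comparison 3 of 8 members were higher and 1 was lower, against 23.6% of genes higher and 22% lower, so the count of members is near the background, and with 4 and 6 cells a single cell weighs heavily. The other members higher there were Itgal (1.92) and Itgam (1.79), and the lower one was Itgb1 (-1.10). With a pseudocount of 10 these 3 calls ended, at 0.85, 0.77 and -0.30, and that of Itgb1 also with equal medians (-0.90) and from mean TPM (-0.24).

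Both chains of CD11b/CD18 were detected in 38 of 47 CD11b+ GMP-P cells (80.9%, 66.7 to 90.9%) and in 13 of 45 GMP cells (28.9%, 16.4 to 44.3%). In the CD11b+ GMP-P gate 0 cells had Itgam alone, 8 had Itgb2 alone and 1 had neither. All 15 Myelo-2 cells had both, against 13 of 20 Gran-2 cells. At a threshold of 10 TPM the pair was present in 28 CD11b+ GMP-P cells and in 4 GMP cells. At that threshold 1 CD11b+ GMP-P cell had Itgam without Itgb2. Every CD11b+ GMP-P cell with Itgam above 0 also had Itgb2 above 0, but so did nearly the whole gate, with 46 of 47 cells.

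Itgal, the alpha chain of LFA-1, did not follow Itgam. It was above 0 in 24 of 47 CD11b+ GMP-P cells and in 25 of 45 GMP cells, with medians of 0.11 and 0.24 TPM and highest values of 283 and 180 TPM (179.72). The gate difference was -0.01 on the log2 scale, or 0.73 above the median of all genes. In states with at least 3 cells of a gate its means lay between 0.95 (cMoP) and 3.25 (MP) with SDs of 1.53 to 2.84, so none of these stood apart from its neighbour beyond the spread of cells. The 2 Gran-2 cells of the GMP gate had 0.24 and 0.65 TPM. Itgal was detected in all 4 Gran-1 cells of the CD11b+ GMP-P gate (1.21, 3.45, 7.88 and 83.3 TPM) and in 5 of 15 Myelo-2 cells. The highest value of the whole table for this gene came from the single Multi-Lin cell of the CD11b+ GMP-P gate, which had Itgam and Itgb2 at 0. Itgal and Itgb2 occurred together in 23 CD11b+ GMP-P cells and 21 GMP cells.

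Itgb1 ran the other way between the gates. It was above 0 in 25 of 47 CD11b+ GMP-P cells (53.2%, 38.1 to 67.9%) and in 39 of 45 GMP cells (86.7%, 73.2 to 94.9%), with a lowest, median and highest value of 0, 0.11 and 236 TPM in CD11b+ GMP-P cells and 0, 24.9 and 490.1 TPM in GMP cells. Both ranges start at 0, but the GMP median was far higher. In GMP cells the 5 MP cells were alike, at 33.3, 56.2, 67.7, 110 and 191 TPM (109.64 for the fourth), while the 5 Multi-Lin cells ran over 0, 0.74, 22.3, 27.1 and 490.1 TPM. The 3 cMoP cells held 2.95, 206 and 224 TPM. The 24 Mono cells had 0, 17.2 and 146 TPM as lowest, median and highest values, with 22 cells above 0.

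Along the granulocyte states Itgb1 was mostly at a low level. In the 6 Gran-1 cells of the GMP gate it was 0, 0, 1.02, 12.2, 24.9 and 130 TPM (130.38), and the 2 Gran-2 cells had 0 and 27.2 TPM. In CD11b+ GMP-P cells 1 of 4 Gran-1 cells had it (94.8 TPM), 16 of 20 Gran-2 cells (median 3.18, highest 56.7 TPM), 2 of 3 Myelo-1 cells (5.58 and 236 TPM), 6 of 15 Myelo-2 cells (highest 21.4 TPM) and 0 of 3 Myelo-4 cells. Within the CD11b+ GMP-P gate the difference of Myelo-2 from Gran-2 cells was -1.31, against a median of -1.04 over all 7334 genes compared. Relative to that median Itgb1 was at -0.27. The lower beta 1 transcript of Myelo-2 cells was thus close to what the middle gene showed. Genes detected had a median of 2936 in Myelo-2 and 4595 in Gran-2 cells, and the part of that gap in the result was not tested. Over all states Itgb1 was highest in MP cells (6.28 ± 0.95), above cMoP (5.83), Mono (3.94) and Multi-Lin (3.82) cells, and neighbours in this order lay within the spread of cells.

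The 2 beta chains were then compared within each cell. The balance, log2(TPM + 1) of Itgb2 minus that of Itgb1, averaged 5.47 ± 2.90 in CD11b+ GMP-P cells and -0.65 ± 4.15 in GMP cells (SD of 47 and 45 cells). Itgb2 was the higher in 45 CD11b+ GMP-P cells, Itgb1 in 1, and they were equal at 0 in 1. In GMP cells Itgb2 was the higher in 19, Itgb1 in 23, and both were at 0 in 3. The balance thus had both signs in the GMP gate and was almost always positive in the CD11b+ GMP-P gate. The sign does not sort cells into kinds: both chains were above 0 in 30 of 45 GMP cells and in 25 of 47 CD11b+ GMP-P cells. In the 21 CD11b+ GMP-P cells with Itgb2 alone, the balance is the Itgb2 level itself. Cell by cell, the Pearson correlation of log2(TPM + 1) between the 2 chains was -0.20 over all 92 cells and 0.19 within the 47 CD11b+ GMP-P cells. Within that gate a higher Itgb2 thus did not go with a lower Itgb1. By state the mean balance in GMP cells was -3.82 ± 3.59 in Multi-Lin, -0.87 ± 2.49 in MP and -4.20 ± 4.24 in cMoP cells (SD of cells). It was -0.39 ± 4.01 in Mono and 1.61 ± 4.15 in Gran-1 cells. The 2 Gran-2 cells of this gate stood at -1.25 and 7.59, with a mean of 3.17. In CD11b+ GMP-P cells the mean balance was 6.69 ± 2.89 in Gran-1, 3.94 ± 2.20 in Gran-2 and 4.42 ± 3.44 in Myelo-1 cells. It was 7.03 ± 2.31 in Myelo-2 and 9.13 ± 1.92 in Myelo-4 cells.

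**Figure D3:**
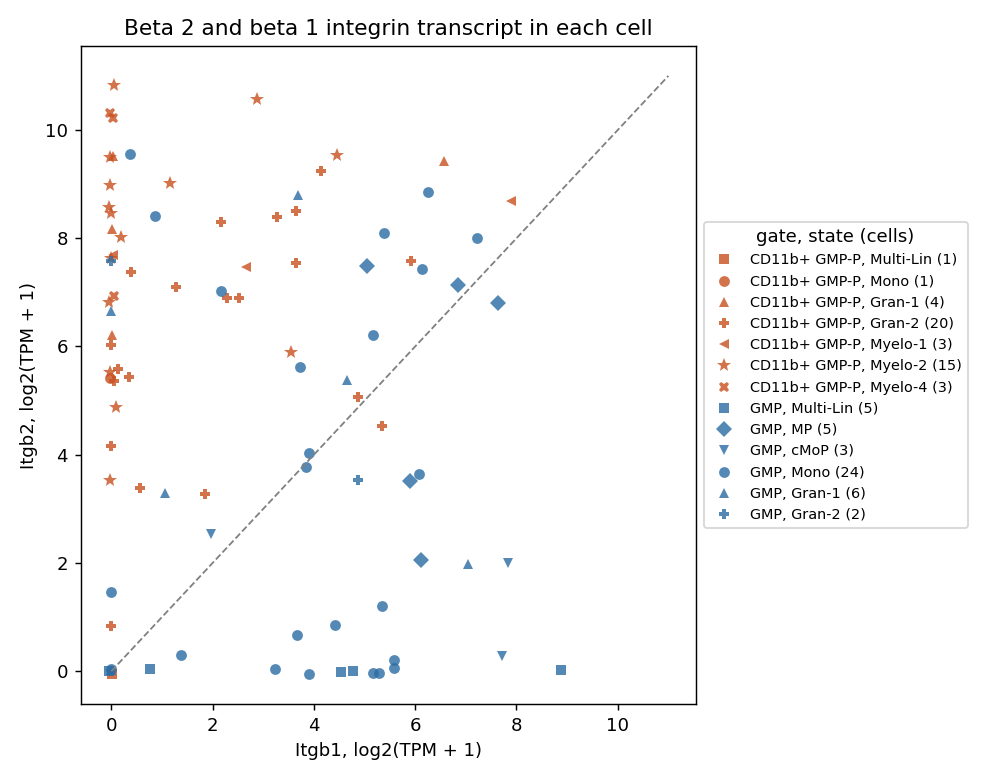
Itgb2 (vertical axis) against Itgb1 (horizontal axis) in each of the 92 cells, both as log2(TPM + 1) with a small jitter; colour gives the gate, shape the state, and the dashed line marks equal levels. CD11b+ GMP-P cells lie above the line in 45 of 47 cases, and GMP cells lie on both sides, with 19 above and 23 below.

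The balance differed by 6.12 between the gates and by 3.09 between Myelo-2 and Gran-2 cells of the CD11b+ GMP-P gate (4.53 with equal medians of widely detected genes). The gate value came from both chains, with Itgb2 higher by 3.57 and Itgb1 at -2.55, beside a median of -0.74 over all genes. Since Itgb2 encodes the partner chain of the sort antigen, the gate value is not independent of the sort. In a subset paired by genes detected, 21 cells from either gate, it was 4.74, with medians of 5241 genes in the CD11b+ GMP-P cells and 5264 in the GMP cells. Between Gran-1 and Gran-2 cells of the gates alone it was 2.40, with 24 and 8 cells. The step from Mono to Gran-1 cells within the GMP gate had a difference of -1.19 in Itgb1 and 0.80 in Itgb2, but neither is firm: from mean TPM they were -0.13 and -0.10, and with a pseudocount of 10 Itgb1 was at -0.45. That comparison had 1 of 8 members higher (Vcam1, 1.47) and 1 lower (Itgb1), against 13.8% of 8601 genes higher and 21% lower, and Vcam1 was at 0.89 with a pseudocount of 10.

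Between Myelo-2 and Gran-2 cells of the CD11b+ GMP-P gate 2 of 8 members were higher, Itgam by 3.02 and Itgb2 by 1.78, against 2.62% of genes higher. The 5 lower members were Vcam1 (-4.63), Selplg (-1.87), Itga4 (-1.39), Itgb1 (-1.31) and Itga6 (-1.17), against 51.2% of genes lower, so this count is near the background apart from the size of the Vcam1 difference. The median difference was -1.24 over the members and -1.04 over all genes. With equal medians of widely detected genes 17.96% of genes were higher and 32.1% lower. Itga4 turned to 0.27, and the calls of Itgb1 (-0.16) and Selplg (-0.78) ended. With a pseudocount of 10 the calls of Selplg (-0.95), Itga4 (-0.53), Itgb1 (-0.45) and Itga6 (-0.31) ended, and from mean TPM that of Selplg (-0.76). Vcam1, Itgam and Itgb2 were called the same way under all 5 settings tried for this comparison. Between Gran-2 and Gran-1 cells of the same gate 1 of 8 members was higher (Vcam1) and 2 were lower, Itgb2 (-2.27) and Itgal (-1.40), against 12.2% of 8999 genes higher and 27.8% lower. Itgal lost that call from mean TPM (-0.22) and with a pseudocount of 10 (-0.35).

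Itga4, the alpha chain of VLA-4, was detected as often in each gate, in 37 of 47 CD11b+ GMP-P cells and 36 of 45 GMP cells, but at different levels. Above 1 TPM there were 14 CD11b+ GMP-P cells and 24 GMP cells, and above 10 TPM 5 and 13. Its medians were 0.21 TPM in CD11b+ GMP-P cells and 1.49 TPM in GMP cells, with highest values of 61.9 and 69.7 TPM. The 5 Multi-Lin cells of the GMP gate had the highest state mean (3.94 ± 2.10), with 4 of them between 19.4 and 49.4 TPM, and, among states with at least 3 cells, the 15 Myelo-2 cells the lowest (0.27 ± 0.39, highest 1.25 TPM). No neighbours in the order of states differed beyond the spread of cells.

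VLA-4 needs both chains. Itga4 and Itgb1 were both above 0 in 19 of 47 CD11b+ GMP-P cells (40.4%, 26.4 to 55.7%) and in 33 of 45 GMP cells (73.3%, 58.1 to 85.4%), and both above 1 TPM in 6 CD11b+ GMP-P cells and 21 GMP cells. In Myelo-2 cells the pair was above 1 TPM in 1 of 15 cells, and in Gran-2 cells of the same gate in 5 of 20. All 3 GMP cells with Itgb7 also had Itga4.

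Itga6, the laminin receptor chain, was above 0 in 20 of 47 CD11b+ GMP-P cells and 18 of 45 GMP cells, with a median of 0 in each gate and highest values of 31.8 and 109 TPM. In the CD11b+ GMP-P gate 4 of 4 Gran-1 cells (0.10, 0.11, 6.38 and 23.8 TPM), 11 of 20 Gran-2 cells and 1 of 15 Myelo-2 cells, at 0.14 TPM, had it. In the 5 MP cells of the GMP gate it was 0, 3.81, 7.47, 30.1 and 36.5 TPM, and it was at 0 in all 3 cMoP cells. The gate difference was -0.55, or 0.18 relative to the median of all genes, near the middle of all genes. From mean TPM Itga6 was at -1.62, beside a median of -0.52 over all genes, and was then called lower. Together with Itgb1 it was found in 9 CD11b+ GMP-P cells and 16 GMP cells, and at more than 10 TPM of both in 0 CD11b+ GMP-P cells and 9 GMP cells.

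Vcam1, the counter-receptor of VLA-4, is best known on endothelium, stroma and marrow macrophages. Here, among states with at least 3 cells, it was highest in Gran-2 cells; the single Mono cell of the CD11b+ GMP-P gate had 211 TPM. In 20 Gran-2 cells of the CD11b+ GMP-P gate its lowest, median and highest values were 0, 164 and 1451 TPM, with 13 cells above 100 TPM, and the 2 Gran-2 cells of the GMP gate held 153 and 436 TPM. Gran-1 cells on the CD11b+ side had 0, 0, 1.59 and 108 TPM, and those of the GMP gate 0, 0, 0, 0.36, 6.49 and 735 TPM. The 3 Myelo-1 cells had 0, 5.43 and 199 TPM. Among 15 Myelo-2 cells 5 had it, 1 of them above 100 TPM (604 TPM), and in 3 Myelo-4 cells it was 0, 0 and 0.12 TPM. The Multi-Lin, MP, cMoP and Mono cells of the GMP gate had it above 10 TPM in 3 of 37 cases, all Mono cells, with a highest value of 67.2 TPM.

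The Gran-2 cells of the CD11b+ GMP-P gate stood above its Gran-1 cells in Vcam1 by 3.91 (99.9% of genes compared had a lower difference), and the difference of Myelo-2 from Gran-2 cells was -4.63. So in this gate the Vcam1 mean was higher in Gran-2 cells than in Gran-1 or Myelo-2 cells. Gran-1 had only 4 cells, and Gran-2 an SD of 3.81. The 3 Myelo-1 cells had the next highest mean among states with at least 3 cells, 3.44 ± 3.88. Between Gran-1 cells of the gates it differed by -0.11, which is well within the spread of cells. Markers of cell types known for VCAM-1 were read in the same cells. In Gran-2 cells of the CD11b+ GMP-P gate 9 of 11 macrophage markers in the table were at 0, among them C1qa, Cd5l, Mertk and Siglec1. The other 2, Emr1 and C1qb, were detected. The summed level of the list ran from 0 to 24.1 TPM, with 2 of 20 cells above 10 TPM, and its part in the Vcam1 values was not tested. In the 2 Gran-2 cells of the GMP gate all 11 macrophage markers were at 0. Of 7 stromal and endothelial markers 6 were at 0 in the Gran-2 cells of each gate, including Cxcl12, Cdh5 and Pdgfrb. The seventh, Lepr, was above 0 in all of them, at 0.29 to 27.1 TPM in the CD11b+ GMP-P gate, where 5 of 20 cells were above 10 TPM, and at 2.24 and 8.17 TPM in the GMP gate. Lepr was likewise above 0 in 45 of 47 CD11b+ GMP-P cells and 45 of 45 GMP cells of any state, and its part in the Vcam1 values was not tested.

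Selplg was above 0 in 33 of 47 CD11b+ GMP-P cells (70.2%, 55.1 to 82.7%) and in all 45 GMP cells, with medians of 34.4 TPM in CD11b+ GMP-P cells and 105 TPM in GMP cells and highest values of 473 and 675 TPM. The 14 cells without it were all in the CD11b+ gate. Among the 15 Myelo-2 cells 8 had none and the highest held 288 TPM, while the 3 Myelo-4 cells had 22.2, 67.7 and 150 TPM (150.28). State means in the GMP gate, for states with at least 3 cells, were 6.47 in Multi-Lin, 6.18 in MP, 7.602 in cMoP, 6.66 in Mono and 5.87 in Gran-1 cells, and did not differ beyond the spread of cells. The gate difference of -2.32 lost its call, at -0.99, when the mean TPM of each gate was taken before the log.

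Genes around these receptors were read from 10 lists, chosen with earlier results of these data known, and each list is described by its counts beside the background of 2.72% higher and 39% lower between the gates. Of 18 integrin alpha subunits 5 were compared, with 1 higher (Itgam) and 1 lower (Itga4), and Itgav, a vitronectin receptor chain, was at -0.22. Of 9 beta subunits 3 were compared, with 2 higher and 1 lower. The second higher one was Itgb2l, a mouse beta chain close to Itgb2. It was near 0 in GMP cells (highest 0.69 TPM), above 0 in 4 of 20 Gran-2, 2 of 3 Myelo-1, 13 of 15 Myelo-2 and 3 of 3 Myelo-4 cells of the CD11b+ GMP-P gate, and its state means there were 0.49, 2.32, 6.92 and 9.70. In Gran-2 cells, where Itgb2l was mostly at 0, Itgb2 averaged 6.07. Reads shared by the 2 paralogs were apportioned by the authors' RSEM run, so both levels carry that uncertainty.

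Of 14 compared genes of integrin activation from inside the cell 0 were higher and 3 were lower. These were Skap2 (-1.68), which acts with the small GTPase RAP1, Rasgrp2 (-1.31), which acts upstream of it, and Rassf5 (-1.20), a RAP1 effector. The list's median of -0.73 was that of all genes, and Tln1, the talin that binds beta tails, was at -0.89. Of 20 compared genes of signalling and focal contacts 5 were higher and 1 was lower, with a median of 0.37. Actn1, the actin crosslinker alpha-actinin 1, was the highest at 3.08, with medians of 30.2 TPM in CD11b+ GMP-P cells and 0 TPM in GMP cells. The actin regulators Vasp (1.999) and Zyx (1.55) were also higher, as was Fgr, a Src family kinase named here after its value was seen (1.12, above 0 in 14 CD11b+ GMP-P cells and 0 GMP cells), and the kinase partner Lims1 (-1.38) was lower.

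Of 4 compared integrin ligands 1 was higher (Vcam1) and 2 were lower, the LFA-1 ligand Icam2 (-2.17) and the matrix protein Emilin1 (-1.30); Icam1 was at -0.75. Icam2 was above 0 in 16 of 20 Gran-2 cells and in 1 of 15 Myelo-2 cells of the CD11b+ GMP-P gate, at 0.41 TPM. Of 12 compared genes of the selectin system 0 were higher and 4 were lower. Beside Selplg these were 3 enzymes that build its selectin-binding sugars, the fucosyltransferases Fut7 (-1.68) and Fut4 (-1.18) and the sialyltransferase St3gal4 (-1.03). The median of this list was -0.56, above that of all genes.

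Of 14 compared adhesion partners 6 were higher and 3 were lower. Cd177, a neutrophil surface protein that associates with CD11b/CD18, was the highest at 5.60, with medians of 148 TPM in CD11b+ GMP-P cells and 0 TPM in GMP cells. Ceacam1 (2.50), the sialic acid receptor Cd33 (2.47) and the urokinase receptor Plaur (2.30) were next, and Cd9 (1.38) and Cd63 (1.03), tetraspanins, completed the 6. The 3 lower genes were Cd47 (-1.62), Emb (-1.52) and Pecam1 (-1.37); these 5 were named after their values were seen. Cd177 stands in the list of late granule markers as well, and was above 0 in all 15 Myelo-2 cells (lowest 46.5 TPM). Of 6 compared sheddases 2 were higher and 0 were lower, the neutrophil collagenase Mmp8 (2.78) and the gelatinase Mmp9 (1.36), and Adam10 (-0.71) and Adam17 (-0.59) lay near the median of all genes.

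Of 7 compared chemotaxis receptors 2 were higher, C5ar1 (1.77) and Ccr1 (1.04), and 2 were lower, the monocyte receptor Ccr2 (-2.72) and Cxcr2 (-1.15). Of 10 compared genes of sort markers 2 were higher, Itgam and Ly6g (1.04, named after its value was seen), and 3 were lower, Cd34 (-5.32), Cd48 (-4.79) and Fcgr3 (-1.78). Of the markers usual for a GMP gate, Cd34 was above 0 in 16 of 47 CD11b+ GMP-P cells and 39 of 45 GMP cells. Kit, whose product served for the enrichment, was above 0 in 23 and 34. The gate difference of Kit was only -0.17, above the median of -0.74 over all genes.

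Between Myelo-2 and Gran-2 cells of the CD11b+ GMP-P gate, 2.62% of genes were higher and 51.2% lower. Beside that, the same lists had 1 higher and 3 lower of 6 alpha subunits and 2 higher and 1 lower of 3 beta subunits. Of 13 genes of integrin activation 1 was higher and 6 were lower. Of 5 ligands 0 were higher and 3 were lower, with a median of -2.04, and of 14 adhesion partners 4 were higher and 7 were lower. The chemotaxis receptors had 3 higher and 1 lower of 8, with a median of 0.02 against -1.04 over all genes.

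**Figure D4:**
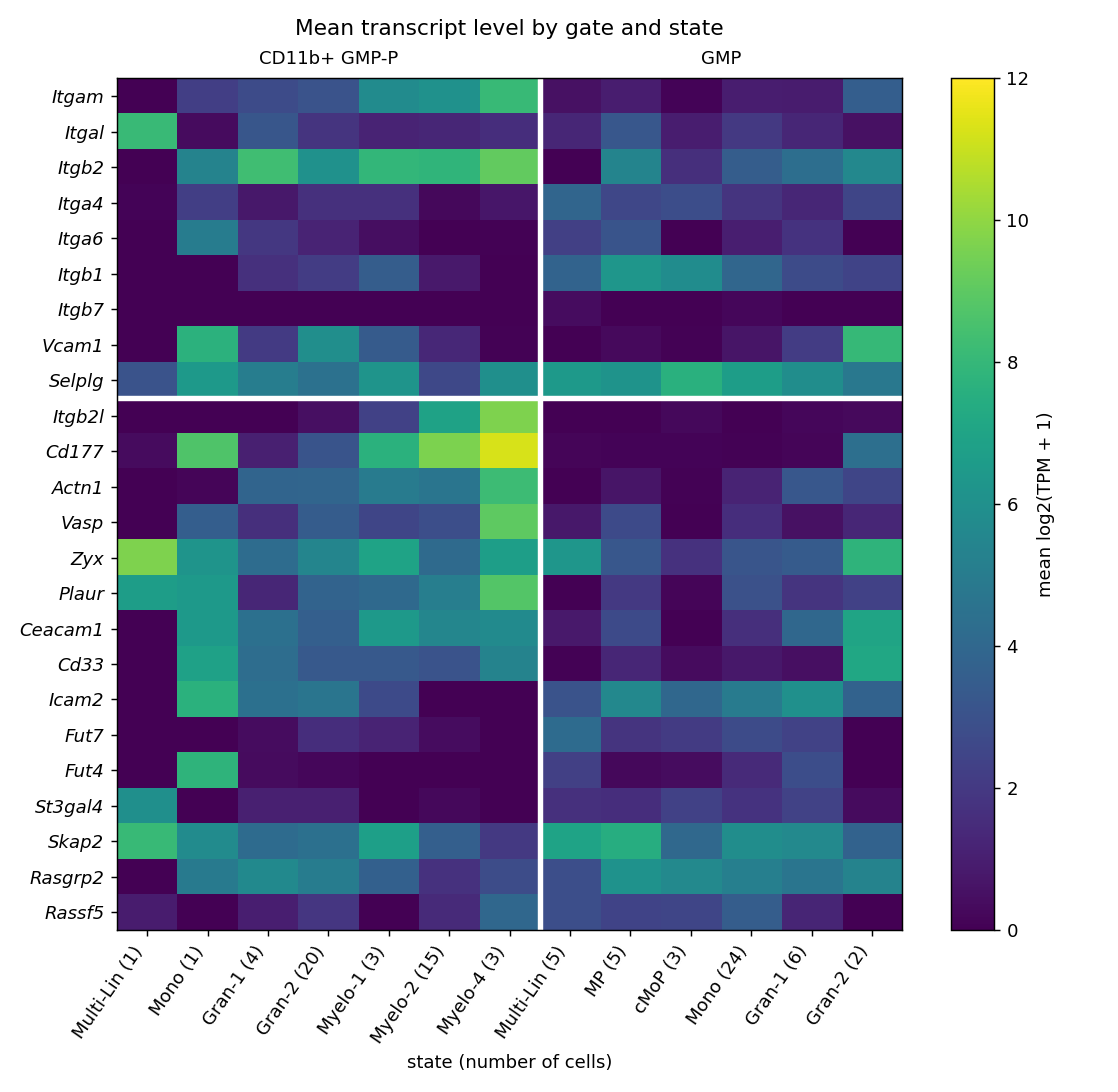
Mean log2(TPM + 1) of the 9 members (above the white line) and of 15 genes of the adhesion lists (below it) by state, with the states of the CD11b+ GMP-P gate left and those of the GMP gate right, and the number of cells in brackets. Itgb2l and Cd177 have their highest means in Myelo-4 and Myelo-2 cells (in Myelo-2, Itgb2l 6.92 and Cd177 9.63), whereas Icam2 is at 0.03 there and at 4.66 in Gran-2 cells of the same gate.

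The genes with the pattern most like Itgam over the 92 cells, by Pearson correlation of log2(TPM + 1) among 7088 genes, were Cd177 (0.70), Chil3 (0.66), S100a9 (0.65), Lcn2 (0.65) and S100a8 (0.64). Its own partner Itgb2 came at rank 63, with 0.39. For Itgb2 they were Lcn2 (0.66), 1100001G20Rik (0.60), S100a8 (0.59), Chil3 (0.56) and S100a9 (0.55). For Itgb1 they were Stt3b (0.51), Mtap (0.50), Pa2g4 (0.50), Nhp2 (0.48) and Snd1 (0.48). These are descriptions: the cells of a gate share their run and the gates differ in genes detected. Within the 47 CD11b+ GMP-P cells the genes most like Itgam were Lyz1 (0.66), Lyz2 (0.61), Cd177 (0.58), Lcn2 (0.58) and Ngp (0.55).

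Markers of other cells were read beside these results. Late granule markers, 8 genes, had a summed median of 179918 TPM in CD11b+ GMP-P cells and 326 TPM in GMP cells, and within the CD11b+ gate 517255 TPM in Myelo-2 cells and 148292 TPM in Gran-2 cells. Monocyte markers, 7 genes, summed to a median of 1.42 TPM in CD11b+ GMP-P cells and 559 TPM in GMP cells. Basophil and mast cell markers, 6 genes, summed above 10 TPM in 3 of 47 CD11b+ GMP-P cells and 22 of 45 GMP cells. All 5 Multi-Lin cells of the GMP gate were among these, at 171 to 11016 TPM. The Multi-Lin cell of the CD11b+ GMP-P gate had 1652 TPM. Erythroid markers, 6 genes, summed to 1044 TPM in 1 of the 5 GMP Multi-Lin cells. The part of either list in the Multi-Lin values was not tested. Of the 3 Myelo-4 cells, 1 held macrophage complement genes (C1qb at 1924 TPM and C1qc at 453 TPM), and in the other 2 the macrophage list summed to 0; that cell had Itgam at 304 TPM and Itgb2 at 1169 TPM, between the other 2 in both, and its part in the Myelo-4 values was not tested. Leaving out all Myelo cells gave an Itgam difference of 1.89 and a Vcam1 difference of 4.13 between the gates.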

How the data were processed

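Single cells of 2 sort gates were profiled on a Fluidigm C1 chip with SMARTer cDNA and Nextera XT libraries, per the labels' protocols. The authors deposited log2 values of TPM plus 1 for 23956 genes in 92 cells, made with Bowtie2 and RSEM on mm9 per the submitters' processing notes; the sources used here give no versions. A second deposited file names the state of each cell (other, not a measurement). The files held 0 columns of other samples and 0 pairs of identical cells. TPM was recovered from the log2 values, and its precision per cell is unknown because TPM keeps no depth. All cells were kept, and doublets were not called.

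Means of log2(TPM + 1), with a pseudocount of 1, were compared for genes above 0 in 25% or more of a group's cells, with a size rule of 1 (2-fold). Shares have exact Clopper-Pearson 95% intervals, and a share of 0 is limited at 3 cells. No test between cells was made. The members and all lists were chosen with earlier results of these data known. Genes named beyond the members were, in each list, up to 4 with the largest absolute gate difference, and the 5 genes most correlated with Itgam, Itgb2 and Itgb1. The correlates within CD11b+ GMP-P cells, the correlation of Itgb2 with Itgb1, and the states of Itgb2l, Icam2 and Cd177 were chosen after their values were seen. So were the comparison of Vcam1 with macrophage markers and the reading of basophil and erythroid markers in Multi-Lin cells. Python 3.11.15, numpy 2.4.6, pandas 2.3.3 and scipy 1.17.1 were used, and the calculation of differences was tested on simulated data. Promoters are from RefSeq (GRCm38.p6), a later build than that of the files, and were matched by symbol; proteins were not used here.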

Additional observations from a re-analysis of the deposited data

Results flagged for a closer look

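In groups of 4 to 6 cells with the same gate and state, the highest or lowest cell was far from the rest, by Dixon's 95% criterion, in 12 of 32 member and group combinations; chance alone marks about 1 in 20, and values with many zeros are marked readily. Among 4 Gran-1 cells of the CD11b+ GMP-P gate, 1 cell had Itga4 at 2.70 TPM (next 0.42) and another had Itgb1 at 94.8 TPM (next 0). Among 6 Gran-1 cells of the GMP gate, Vcam1 was 735 TPM in 1 cell (next 6.49), which also held Itga4 at 19.5 TPM (next 1.40), and Itgam was 47.7 TPM in another (next 0). Among 5 MP cells, Itgam was 13.2 TPM in 1 cell (next 0.80) and Vcam1 2.05 TPM in another (next 0). Among 5 Multi-Lin cells of the GMP gate, the apart values were Itgam at 5.88, Itgal at 80.8, Itgb7 at 2.80 and Vcam1 at 0.17 TPM, each with the other cells at 0, and Itga4 lowest at 0.23 TPM (next 19.4).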

How the results depend on the processing

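The count of 3 higher members was the same under all 10 settings tried. Detection in 10% of cells and no filter left every member difference as it was, so only 8 settings recomputed the values. The count of 3 lower members was 1 in granulocyte states only and 2 or 3 under the others. From mean TPM the 3 were not the same genes, since Itga6 (-1.62) was called and Selplg (-0.99) was not. The balance of Itgb2 over Itgb1 between the gates, 6.12, was 8.44 with a pseudocount of 0.1, 3.53 with a pseudocount of 10, 3.95 from mean TPM, 4.74 in cells matched on genes detected, 4.92 without the Myelo states and 2.40 in granulocyte states only. Between Myelo-2 and Gran-2 cells, 3.09, it was 4.401 with a pseudocount of 0.1, 1.996 with a pseudocount of 10 and 4.53 with equal medians. The share of CD11b+ GMP-P cells with Itgam, 80.9%, was 65.4% without the Myelo states, 66.7% in granulocyte states only and 61.7% above 10 TPM. The share of GMP cells, 37.8%, was 20% above 1 TPM and 13.3% above 10 TPM. Itga4 between Myelo-2 and Gran-2 cells, -1.39, was 0.27 with equal medians. The cause of these shifts was not tested. In granulocyte states only the Itgb1 gate difference was -0.61 and that of Itgam 1.42. With equal medians 626 genes were higher and 2109 lower between the gates, against 212 and 3044 as reported; the counts higher were 344 and 98 at pseudocounts of 0.1 and 10, 661 from mean TPM, and those lower 4595, 1247 and 2356. In matched cells they were 790 and 1150, without the Myelo states 408 and 1410, and in granulocyte states only 904 and 1603. No paired analysis was possible because cell numbers only name cells and do not pair the gates. Each gate is 1 sample, depth is unknown, and a value of 0 in a cell can be a missed transcript.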
